A study of Mus musculus with 6 samples.

Results

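The scavenger and bridging receptors by which phagocytes take up dead cells were followed as 10 genes, *Timd4*, *Mfge8*, *Stab1*, *Lrp1*, *Cd36*, *Scarb1*, *Msr1*, *Marco*, *Mrc1* and *Cd163*, out of 55538 listed features. The genes were chosen by name from what their proteins are known to do. Single-cell RNA-seq on the 10x Genomics platform (5′ kit) had been performed on peritoneal cells of 8- to 12-week-old C57BL/6 mice (C57BL/6J in the study's methods), either Mertk+/+ (labelled WT) or Mertk-/- (labelled MerKD, backcrossed to the same strain). Cells that adhered to plastic were given a media change (control) or were co-cultured for 2 h or 6 h with apoptotic Jurkat cells, a human T cell line killed by UV light. Each of the 2 genotypes and 3 conditions was 1 library with the cells of 3 mice pooled. The deposited table tags each cell with a library number from 1 to 6 that no label ties to a genotype or time, so levels were described across cell types and library numbers, and conditions were not compared. Control and co-cultured cells of both genotypes were therefore pooled in every class.

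Dying cells expose phosphatidylserine, a lipid that healthy cells keep on the inner side of the membrane. Phagocytes bind it directly, as the proteins of *Timd4* (TIM-4) and *Stab1* (stabilin-1) do, or through soluble bridging proteins such as that of *Mfge8* (lactadherin), which links the lipid to integrins. *Lrp1* encodes a large endocytic receptor that binds calreticulin among many ligands, while class B (*Cd36*, *Scarb1*) and class A (*Msr1*, *Marco*) scavenger receptors bind modified lipoproteins and other polyanions, and *Mrc1* and *Cd163* encode receptors for mannosylated glycoproteins and for haemoglobin-haptoglobin. In the peritoneal cavity, resident large macrophages depend on the transcription factor GATA6, whereas IRF4 is used by the smaller, MHC class II-rich macrophages that derive from monocytes.

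Of 7760 barcodes, 7665 passed the filters of the study on genes and mitochondrial counts, with a median of 4378 UMIs (unique molecular identifiers, each 1 captured transcript) per cell. Library totals were between 4234786 and 10287079 UMIs and library medians between 2783 and 5794, and 28 barcode sequences occurred in more than 1 library. Gates on marker UMIs gave 3101 B cells (at least 4 UMIs of *Cd79a* and *Cd79b*), 667 T/NK cells (at least 2 of *Cd3d*, *Cd3e* and *Nkg7*) and 2773 macrophages (at least 2 of *Csf1r*, *Adgre1* and *Fcer1g*, with few lymphocyte UMIs). Of these, 153 cells passed both lymphocyte gates and are counted in both, and 1277 cells met no gate. As a check of the labelled cell type, *Lyz2*, a myeloid lysozyme gene that the gate does not use, stood at 15081 CPM (UMIs of the gene per 1000000 UMIs of the class) in macrophages, 235 CPM in B cells and 1072 CPM in T/NK cells. Levels are sums over the cells of a class. Their 95% intervals are exact and cover counting error only, no p-value is given because each condition has 1 library and cells are not replicates, and all 6 library values are shown by their range.

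For 3 members, the 250 bases before the transcription start carried the letters GGAANNGAA, the composite site of an ETS factor with an IRF factor, and these sequences are shown because the letters set *Timd4*, *Stab1* and *Marco* apart from the other 5 member windows. RefSeq promoters (GRCm38.p6) were found for 8 of the 10 members, all but *Scarb1* and *Msr1*. The 3 windows are chr11:46810549-46810798 (plus strand) for *Timd4*, chr14:31168642-31168891 (minus strand) for *Stab1* and chr1:120505025-120505274 (minus strand) for *Marco*, written 5′ to 3′ along the gene, with capitals for the match on either strand.
Timd4: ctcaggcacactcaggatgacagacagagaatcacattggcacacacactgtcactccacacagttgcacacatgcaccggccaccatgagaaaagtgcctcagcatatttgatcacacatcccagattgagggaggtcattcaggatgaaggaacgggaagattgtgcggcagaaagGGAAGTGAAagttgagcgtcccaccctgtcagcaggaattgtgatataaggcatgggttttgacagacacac
Stab1: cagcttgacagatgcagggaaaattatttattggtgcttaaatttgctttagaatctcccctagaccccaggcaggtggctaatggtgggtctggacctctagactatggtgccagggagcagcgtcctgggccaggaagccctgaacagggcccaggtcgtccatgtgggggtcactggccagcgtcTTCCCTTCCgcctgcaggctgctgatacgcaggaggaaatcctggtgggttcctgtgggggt
Marco: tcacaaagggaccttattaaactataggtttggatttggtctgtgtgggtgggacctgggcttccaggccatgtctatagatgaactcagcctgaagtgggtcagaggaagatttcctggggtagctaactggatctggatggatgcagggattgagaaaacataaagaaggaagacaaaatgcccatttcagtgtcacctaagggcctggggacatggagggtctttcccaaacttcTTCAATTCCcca
The match lay between bases -72 and -64 from the start in *Timd4*, between -62 and -54 in *Stab1* and between -12 and -4 in *Marco*. Over all 32851 RefSeq promoters, 6.99% held these letters on either strand in a window of the same length. The GATA letters AGATAA and TGATAA, present in 9.99% and 7.94% of all promoters, and the PU.1 letters GAGGAAGT, present in 2.44%, were in none of the 8 member windows. A match is a description of the letters and not of a bound site. *Timd4* spans chr11:46810800-46844332, *Stab1* chr14:31139013-31168641 and *Marco* chr1:120474538-120505024 in GENCODE vM21 (GRCm38). On the opposite strand, *Stab1* overlaps *Nt5dc2* and *Lrp1* overlaps the antisense gene *Gm16217*, while *Scarb1* overlaps the unclassified *Gm42633* and *Mrc1* overlaps *Mir511* on the same strand. Whether the authors' counting used strand is not given in the sources used here.

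All members but *Scarb1* were higher in macrophages than in either lymphocyte class. Of the 8 members that averaged at least 5 CPM over all cells, 7 were at least 2-fold higher in macrophages than in B cells, beside 18.3% of the 9594 genes that passed the same filter, and 7 were at least 2-fold higher than in T/NK cells, beside 17.8%. None was 2-fold lower, beside 25.1% of genes against B cells and 26.2% against T/NK cells. The filter is a mean over all cells, so a gene low in lymphocytes passes it only through macrophages, and these counts are not independent of it. *Stab1*, for example, averaged 6.25 CPM from 16.9 CPM in macrophages and 0.298 CPM in B cells. *Mrc1* and *Cd163* averaged less than 5 CPM and are given by their values. The 9 higher genes stood above both lymphocyte classes in 6 of 6 libraries.

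*Timd4*, the receptor that tethers phosphatidylserine, had 45.7 CPM in macrophages (95% interval 42.2 to 49.4), 0.945 CPM in B cells and 1.75 CPM in T/NK cells. By library its macrophage level was 18.1 CPM at the lowest, 37.5 at the median and 67.2 at the highest, and no B cell value exceeded 2.47 CPM. The log2 ratio of macrophages over B cells was 5.59 (4.94 to 6.34). *Mfge8*, the secreted bridge, had 29.5 CPM in macrophages, between 18.1 and 33.1 over the libraries (1.83-fold). It was at 1.29 CPM in B cells and 6.11 CPM in T/NK cells, which gave log2 ratios of 4.51 (3.94 to 5.14) and 2.27 (1.64 to 2.98). *Stab1* had 16.9 CPM in macrophages, between 10.6 and 28.5 by library, against 0.298 CPM in B cells, a log2 ratio of 5.82 (4.68 to 7.29). The 3 genes were thus low but enriched in macrophages. *Lrp1* had 164 CPM in macrophages, between 126 and 281 by library with a median of 149, against 2.64 CPM in B cells, a log2 ratio of 5.96 (5.56 to 6.38).

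*Cd36*, which binds oxidised lipoproteins and fatty acids, was the member with most UMIs, 21702 in macrophages. Its level was 1575 CPM (1554 to 1596) in macrophages, 33.4 CPM in B cells and 59.7 CPM in T/NK cells. By library it was 864 CPM at the lowest, 1730 at the median and 3404 at the highest in macrophages, and at most 53.5 CPM in B cells. *Scarb1*, the receptor for high-density lipoprotein, was the exception to the macrophage pattern. It had 14.7 CPM in macrophages (12.7 to 16.8), 12.8 in B cells (11.3 to 14.4) and 10.5 in T/NK cells (7.34 to 14.5). The log2 ratio over B cells was 0.20, with an interval of -0.08 to 0.47, and 3 of 6 libraries were higher in macrophages. Over T/NK cells it was 0.48 (-0.03 to 1.04), higher in 4 of 6 libraries. A difference of 2-fold from B cells thus lay outside the counting interval of the pooled cells, and the ranges of the 3 classes over the libraries overlapped. Within libraries the log2 ratio over B cells was between -1.17 (library 3) and 1.56 (library 4), beyond 2-fold in both directions.

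Of the class A receptors, *Msr1* had 250 CPM in macrophages, between 221 and 361 by library, against 4.43 CPM in B cells and 17.8 CPM in T/NK cells. *Marco* had 115 CPM in macrophages, between 62.2 and 156 by library with a median of 103, against 1.79 CPM in B cells, a log2 ratio of 6.01 (5.53 to 6.53). In T/NK cells *Marco* was at 16.6 CPM, but this rested on library 1, with 66.4 CPM there and at most 17.3 elsewhere. A single T/NK cell held 29 of its 57 UMIs, and without library 1 the log2 ratio over T/NK cells went from 2.79 to 4.81. *Mrc1* had 10.3 CPM in macrophages, between 5.99 and 25.0 by library with a median of 10.5, against 0.945 CPM in B cells, a log2 ratio of 3.45 (2.75 to 4.22). *Cd163* had 4.94 CPM in macrophages (3.83 to 6.26), between 2.78 and 7.36 by library. It had 2 UMIs in B cells and 0 in T/NK cells, where a count of 0 allows 0.873 CPM, so its macrophage level was at least 5.65-fold higher than in T/NK cells.

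**Figure D1:**
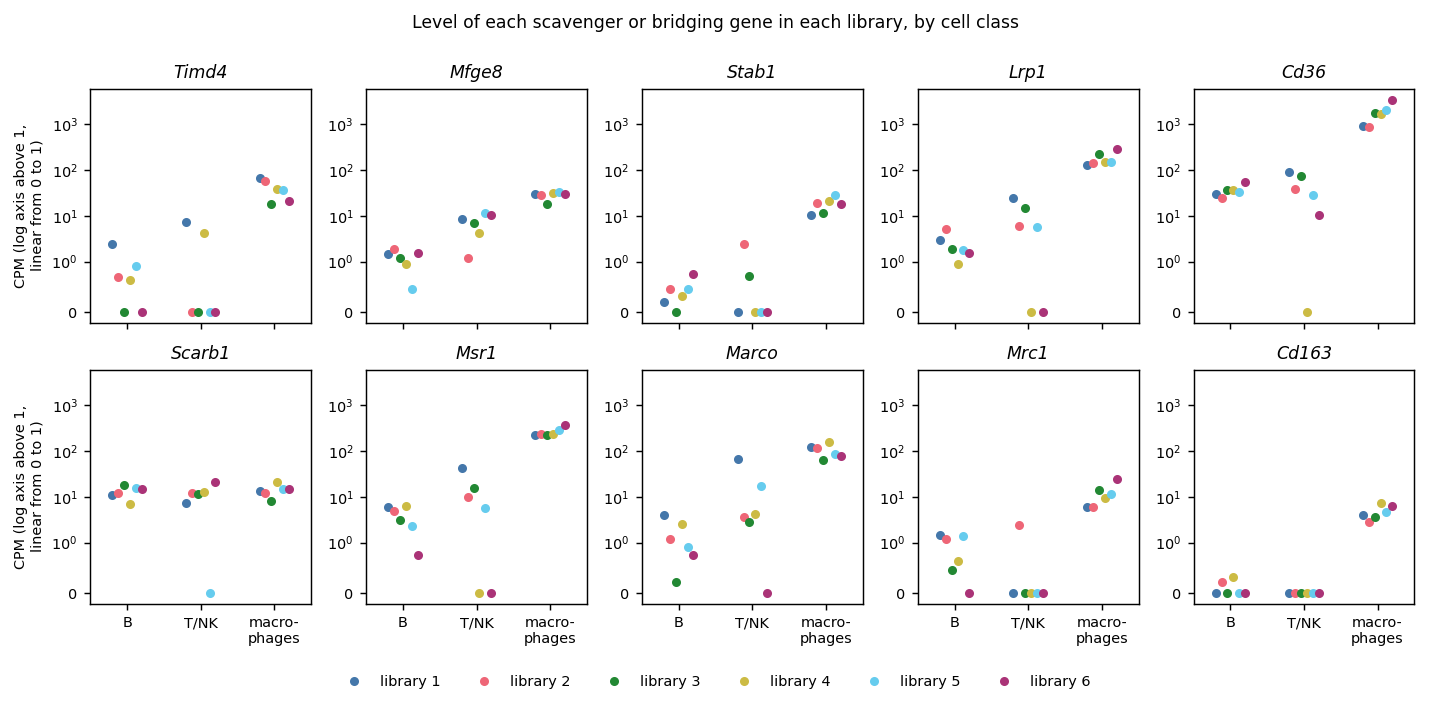
Level of each gene in CPM (log axis above 1, linear below) in B cells, T/NK cells and macrophages, with 1 point per library. For 9 genes every macrophage point lies above the lymphocyte points of the same library, while those of *Scarb1* cover overlapping ranges, between 7.96 and 20.6 CPM in macrophages and between 7.01 and 18.0 CPM in B cells.

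The share of macrophages with a UMI ranged from most cells to a few. *Cd36* was detected in 92.4% of macrophages (91.4 to 93.4), *Msr1* in 57.8% and *Lrp1* in 47.3%. *Marco* was found in 16.7%, *Timd4* in 13.5%, *Mfge8* in 12.6%, *Stab1* in 7.28%, *Scarb1* in 6.53%, *Mrc1* in 3.79% and *Cd163* in 1.88%. After every cell was thinned to 1500 UMIs, which left out 83 macrophages, 38 B cells and 16 T/NK cells, *Cd36* stood at 76.8% of macrophages, 2.84% of B cells and 2.61% of T/NK cells. At that depth *Timd4* was in 5.61% of macrophages, 0.0653% of B cells and 0.154% of T/NK cells, and *Scarb1* in 2.38%, 1.80% and 0.768%. The lymphocyte shares stand here as the background, with median depths of 5561 UMIs in B cells, 3206 in T/NK cells and 4426 in macrophages.

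*Marco* was uneven from cell to cell. The 463 macrophages with a *Marco* UMI held 3.43 UMIs each on average, the highest cell held 52, and 10 cells held 17.4% of all UMIs. *Timd4*, detected in 375 macrophages, averaged 1.68 UMIs per cell with a UMI, had a highest cell of 7, and 10 cells held 9.70%. *Lrp1*, detected in 1313 macrophages, averaged 1.72 UMIs per cell with a UMI, had a highest cell of 12, and 10 cells held 3.41%. The share in 10 cells also falls as more cells carry a UMI. Among macrophages thinned to 1500 UMIs, 30 of 151 cells with a *Timd4* UMI also had a *Marco* UMI (19.9%, beside 9.18% of the other macrophages). *Msr1* was in 38.4% of the *Timd4* cells beside 29.5% of the others, and *Cd36* in 70.2% beside 77.2%. Of the 56 cells with an *Mrc1* UMI, 17.9% had *Msr1*, beside 30.3% of the others, and none had *Mfge8*, beside 4.59%. *Stab1* and *Scarb1* were also at 0 in them, beside 2.54% and 2.43%, and 56 cells are too few to read such a 0 as exclusion. All these shares of cells with both genes pool the libraries, and the part of the libraries in them was not tested.

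Low lymphocyte levels of *Timd4*, *Stab1* and *Lrp1* moved with macrophage transcripts. In B cells those of most other members did so only in part or not at all. *Lyz2* was in B cells at 1.56% of its macrophage level, and *Timd4*, *Stab1*, *Lrp1*, *Cd36*, *Msr1* and *Marco* were between 1.56% and 2.12%. Other macrophage genes stood higher in B cells, *Itgam* at 3.74% and *Cd68*, a lysosomal protein, at 11.2%, and *Cd68* kept 22.7 CPM in B cells with no macrophage or T/NK gate UMI. In T/NK cells *Lyz2* was at 7.11% and *Cd68* at 13.9%, beside 7.82% for *Lrp1*, 7.10% for *Msr1* and 3.79% for *Cd36*. The summed level of 6 macrophage markers in T/NK cells was between 21.0 and 3309 CPM over the libraries. Among B cells, 37 of the 39 with an *Lrp1* UMI and 13 of the 14 with a *Timd4* UMI also held a UMI of *Csf1r*, *Adgre1* or *Fcer1g*, beside 6.56% and 7.29% of the B cells without them. In B cells with no such UMI and no T/NK gate UMI, *Timd4* and *Stab1* kept 1 UMI each and *Lrp1* 2 UMIs over 2863 cells, while in 602 T/NK cells of the same kind *Msr1*, *Lrp1*, *Stab1* and *Cd163* had 0 UMIs.

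*Cd36*, *Scarb1*, *Mfge8* and *Mrc1*, and in B cells also *Msr1* and *Marco*, did not follow that pattern in full. *Cd36* kept 204 UMIs in the strictly gated B cells, 11.3 CPM (9.78 to 12.9), but only 2 UMIs in the strictly gated T/NK cells, 0.682 CPM (0.0825 to 2.46). *Scarb1* kept 13.2 CPM in strictly gated B cells and 11.6 CPM in T/NK cells, both close to its 14.6 CPM in macrophages gated the same way. Of the 230 B cells with a *Scarb1* UMI, 17 held a macrophage gate UMI, 7.39% beside 7.70% of the rest. *Mfge8* kept 0.939 CPM in B cells (0.547 to 1.5) and 4.43 CPM in T/NK cells (2.36 to 7.58), where *Lrp1* and *Msr1* had none. *Mrc1* kept 15 of its 19 B cell UMIs, 0.829 CPM (0.464 to 1.37). In the same B cells *Msr1* kept 12 UMIs, 0.663 CPM (0.343 to 1.16), and *Marco* kept 8 UMIs, 0.442 CPM (0.191 to 0.871).

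**Figure D2:**
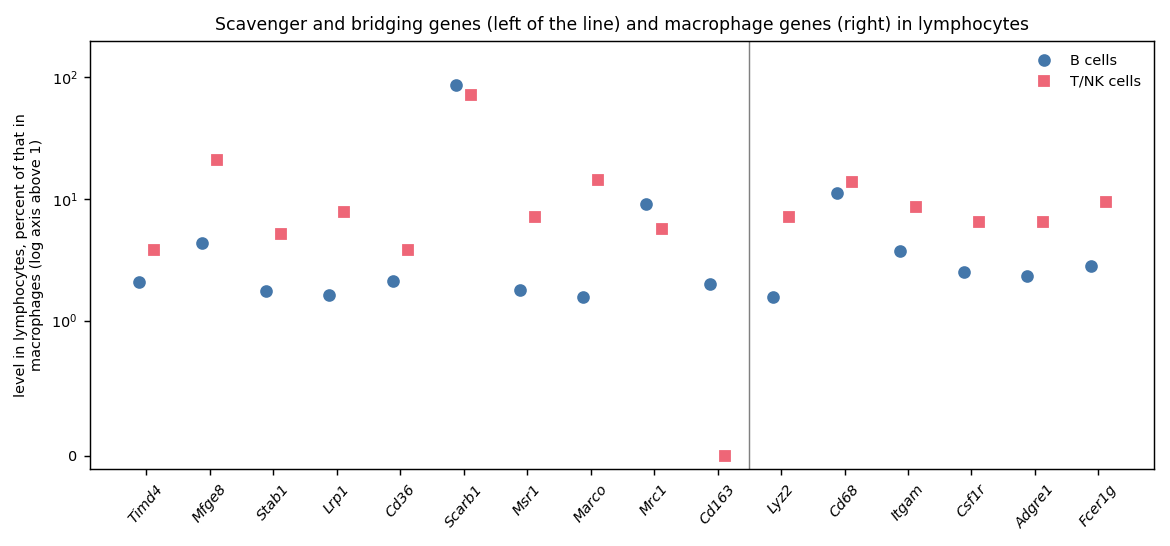
Level of each gene in B cells (circles) and T/NK cells (squares) as a percent of its level in macrophages (log axis above 1), for the 10 members on the left and 6 macrophage genes on the right. *Scarb1* stands at 87.2% and 71.5%, *Mrc1* at 9.17% in B cells and *Mfge8* at 20.7% in T/NK cells, while *Timd4*, *Stab1*, *Lrp1*, *Cd36*, *Msr1* and *Marco* lie between 1.56% and 2.12% in B cells, beside 1.56% for *Lyz2* and 11.2% for *Cd68*.

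Macrophages were next divided by single transcripts. A *Gata6* UMI was found in 657 macrophages (23.7%), an *Irf4* UMI in 277 (9.99%) and a *Folr2* UMI, which codes for a folate receptor of tissue macrophages, in 134 (4.83%). A cell without the UMI can still express the gene, so each split sets cells that carry it against a mixture, and it is not a sort of pure types. The share with an *Irf4* UMI was between 4.57% and 23.4% by library, that with a *Gata6* UMI between 12.2% and 32.0% and that with a *Folr2* UMI between 2.00% and 7.83%, which is why directions are also given by library. Median depth was 5542 UMIs in cells with a *Gata6* UMI and 4134.5 in the rest, and 4182 and 4417 in those with *Irf4* and *Folr2*. Large macrophage markers summed to 3539 CPM with a *Gata6* UMI and 2293 CPM without, while small macrophage markers summed to 5172 CPM with an *Irf4* UMI and 858 CPM without, both sums including the gene of the split.

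With a *Gata6* UMI, *Timd4*, *Mfge8* and *Msr1* were higher and *Cd36* and *Mrc1* were lower. None of the 8 members above the filter was 2-fold higher, beside 0.542% of genes, and none was 2-fold lower, beside 4.42%. *Timd4* was at 64.4 CPM with and 38.1 CPM without a *Gata6* UMI, a log2 ratio of 0.76 (0.52 to 0.99), higher in 4 of 6 libraries, but at 0.29 (-0.53 to 1.03) when cells were thinned to 1500 UMIs before gating and at 0.48 with equal library weights. *Mfge8* was at 38.6 and 25.8 CPM, a log2 ratio of 0.58 (0.29 to 0.88), and *Msr1* at 289 and 234 CPM, a log2 ratio of 0.30 (0.20 to 0.41), both higher in 6 of 6 libraries. *Cd36* was at 1254 and 1704 CPM, a log2 ratio of -0.44 (-0.49 to -0.40), lower in 6 of 6. *Mrc1*, below the filter, had 4 UMIs (1.01 CPM) with and 138 UMIs (14.1 CPM) without, a log2 ratio of -3.80 (-5.69 to -2.41), lower in 6 of 6. For *Stab1*, *Lrp1*, *Scarb1*, *Marco* and *Cd163* the intervals held 0.

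With an *Irf4* UMI, 4 of the 8 members above the filter were at least 2-fold lower, beside 5.87% of genes, and none was 2-fold higher, beside 7.69%. *Timd4* was at 18.5 CPM with and 48.6 CPM without, a log2 ratio of -1.40 (-2.03 to -0.82), lower in 5 of 6 libraries. *Mfge8* was at 12.6 and 31.3 CPM (log2 ratio -1.32, lower in 6 of 6), and *Stab1* at 6.65 and 18.0 CPM (log2 ratio -1.44, interval -2.59 to -0.49, lower in 5 of 6, from 9 UMIs). *Stab1* had 0 UMIs in the *Irf4* cells of libraries 3, 4 and 5. In the 3 libraries with a ratio its log2 ratio was between -0.78 and 0.095, so none of these was 2-fold lower. *Msr1* was at 128 and 263 CPM, a log2 ratio of -1.04 (-1.27 to -0.82), lower in 6 of 6. The tethering receptor, the bridge, stabilin-1 and the class A receptor were thus all lower in these cells. *Marco* lay just inside 2-fold with -0.98 (-1.32 to -0.66), lower in 5 of 6. Higher by less than 2-fold were *Cd36*, at 2303 and 1496 CPM (log2 ratio 0.62, higher in 5 of 6), and *Lrp1*, at 219 and 158 CPM (log2 ratio 0.47, higher in 4 of 6). *Mrc1* was at 27.4 and 8.45 CPM, a log2 ratio of 1.69 (1.11 to 2.25), higher in 5 of 6, but at -0.056 (-3.15 to 1.9) when cells were thinned to 1500 UMIs before gating. Weighting the libraries equally brought *Cd36* to 0.22 and *Lrp1* to 0.22, and leaving out library 6, which holds 121 of the 277 cells, brought *Marco* to -1.75. Equal weights also left *Timd4* less than 2-fold lower, and *Marco* took its place among the 4 lower members. With the thinning before gating, *Timd4* stood at -1.34 (-3.63 to 0.24) and *Msr1* at -1.5, but *Mfge8* at -0.80, *Marco* at -0.14 and *Stab1*, with no UMI left, at a bound of -0.04, while *Scarb1* went from -0.24 (-1.05 to 0.47) to 1.09 (-0.42 to 2.32). The count of lower members was then 2 in place of 4, and it was 3 without library 3 or 5, where *Msr1* was at -0.85 and -0.99. A set of 6 B cell markers summed to 122 CPM in these macrophages and 14.7 CPM in the rest, beside 4132 CPM in B cells, where *Irf4* stood at 272 CPM, and the part of this in the differences was not tested.

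With a *Folr2* UMI, *Marco*, *Scarb1*, *Mrc1* and *Cd163* were at least 2-fold higher and *Mfge8* was lower. Of the members above the filter these were 2 higher, beside 6.52% of genes, and 1 lower, beside 5.25%. *Marco* was at 258 CPM with and 108 CPM without, a log2 ratio of 1.25 (1.01 to 1.49), higher in 6 of 6 libraries. *Scarb1* was at 29.7 and 13.9 CPM, a log2 ratio of 1.09 (0.33 to 1.78) from 19 UMIs, higher in 4 of 6, but without library 4 it was 0.19 and with equal library weights 0.72. *Mrc1* was at 51.6 and 8.30 CPM, a log2 ratio of 2.64 (2.03 to 3.21), and *Cd163* at 34.4 and 3.50 CPM, a log2 ratio of 3.30 (2.49 to 4.06), both higher in 5 of 6. *Mfge8* was at 10.9 and 30.4 CPM, a log2 ratio of -1.47 (-2.80 to -0.42) from 7 UMIs. *Timd4* was at 50.05 and 45.4 CPM, a log2 ratio of 0.14 (-0.42 to 0.65). Small macrophage markers summed to 3122 CPM with a *Folr2* UMI and 1192 CPM without, *Retnla* alone being at 3020 and 1087 CPM, and large macrophage markers summed to 1739 and 2695 CPM, and the part of these in the differences was not tested. *Lyve1*, listed with endothelial markers and also found in tissue macrophages, was at 119 CPM in these cells and 4.72 CPM in the rest, while *Kdr* and *Stab2* had 0 UMIs in them and *Cdh5* had 1.

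**Figure D3:**
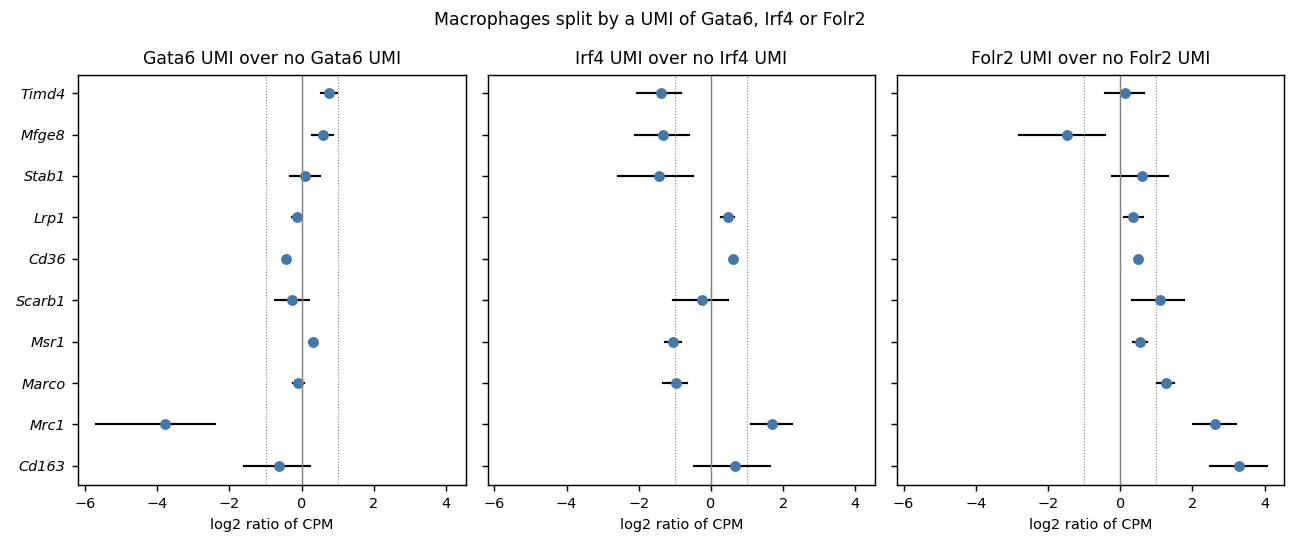
Log2 ratio of CPM in macrophages with a UMI of *Gata6*, *Irf4* or *Folr2* over those without it, with exact 95% counting intervals and dotted lines at 2-fold. *Timd4* is at 0.76, -1.40 and 0.14 in the 3 panels and *Mrc1* at -3.80, 1.69 and 2.64.

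Detection was also compared at equal depth in strata that share no cell. Of the macrophages with at least 1500 UMIs that had only a *Gata6* UMI (620 cells), only an *Irf4* UMI (229), only a *Folr2* UMI (100) or none of the 3 (1690), *Marco* was detected at 1500 UMIs in 9.68%, 3.49%, 26.0% and 9.53%. The interval of the *Folr2* stratum, 17.7 to 35.7%, lay above the other 3, and these intervals cover counting error over pooled cells only. *Msr1* was in 35.0%, 11.8%, 28.0% and 30.7%, and *Lrp1* in 19.0%, 29.3%, 19.0% and 20.1%. For *Timd4* the shares were 8.23%, 1.31%, 5% and 5.21%, and for *Mfge8* 6.77%, 1.75%, 1.00% and 4.2%. *Cd36* was in 69.7%, 89.5%, 93.0% and 76.4%, and *Mrc1* in 0.161%, 3.49%, 9% and 2.07%. The strata differed in their libraries. Before thinning, library 1 gave 204 of the 624 *Gata6*-only cells and library 6 gave 104 of the 236 *Irf4*-only cells. Library 4 gave 46 of the 103 *Folr2*-only cells. The part of the libraries in these shares was not tested.

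**Figure D4:**
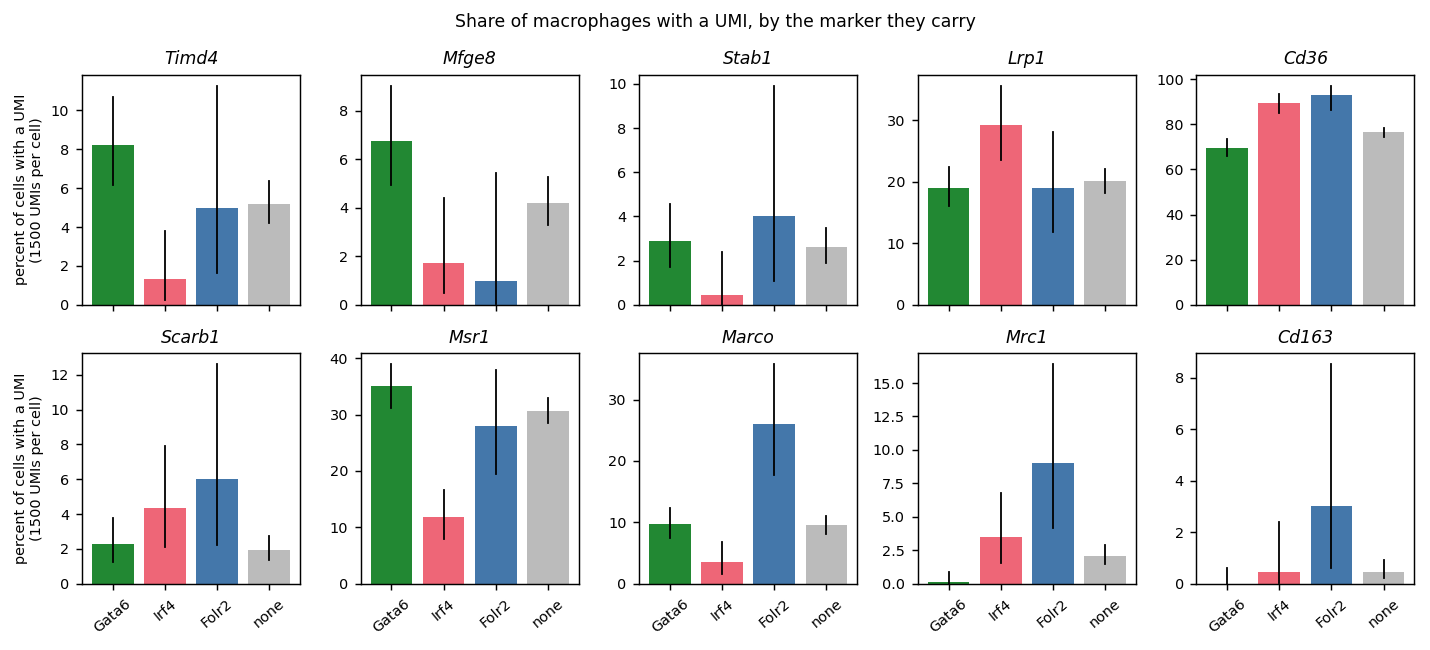
Percent of macrophages with a UMI of each gene after thinning to 1500 UMIs per cell, in cells with only a *Gata6*, *Irf4* or *Folr2* UMI and in cells with none of the 3, with exact binomial 95% intervals as lines. *Msr1* is lowest in the *Irf4* cells (11.8%) and *Marco* highest in the *Folr2* cells (26.0%).

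Levels also differed between library numbers within the macrophages. *Cd36* differed most among members above 100 CPM, 3.94-fold between 864 and 3404 CPM, and within macrophages with a *Gata6* UMI it was between 675 and 3195 CPM. *Timd4* was between 10.7 and 89.7 CPM in those cells, with 3 UMIs in the lowest library. *Lrp1* was between 123 and 264 CPM and *Msr1* between 238 and 529 CPM there. *Mrc1* had 0 UMIs in 3 of the 6 libraries and was at most 4.64 CPM in macrophages with a *Gata6* UMI. Library numbers could not be matched to conditions, and differences between them could come from genotype, co-culture or the preparation of each library, which cannot be told apart.

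**Figure D5:**
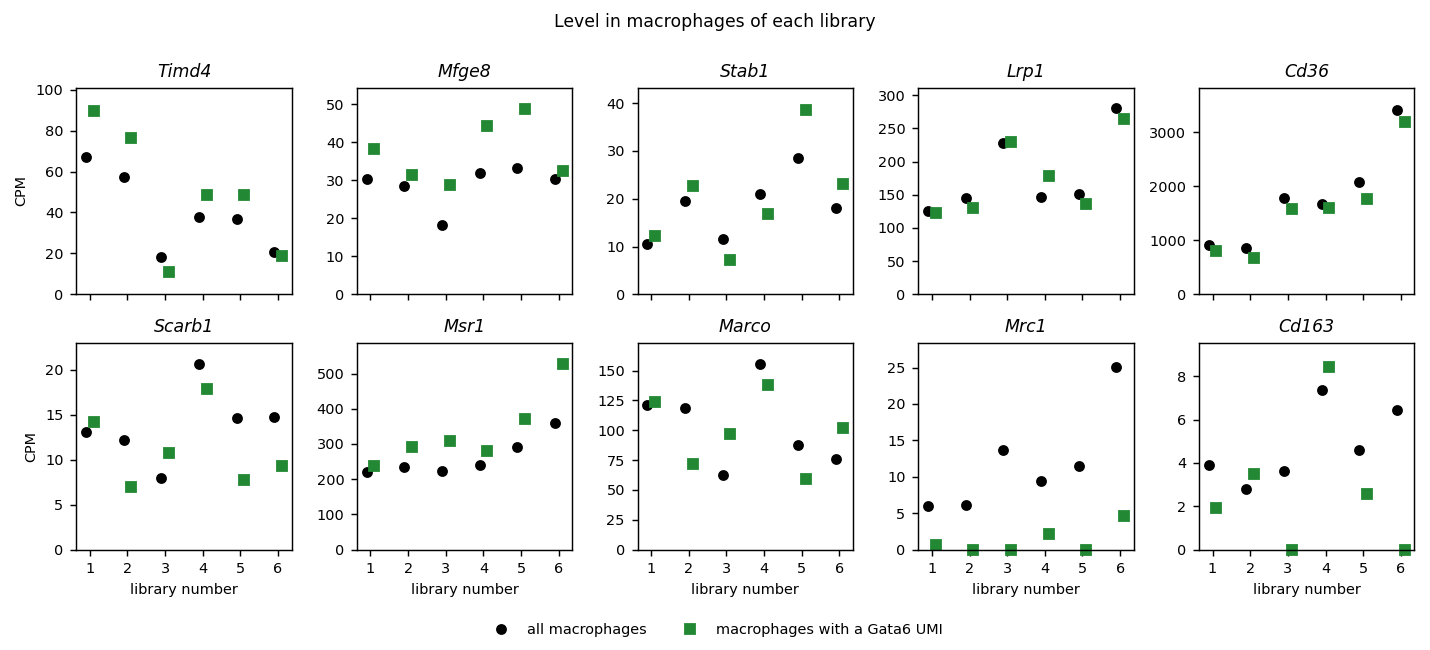
CPM of each gene in all macrophages (circles) and in macrophages with a *Gata6* UMI (squares), for each library number. *Cd36* spans 864 to 3404 CPM in all macrophages and 675 to 3195 CPM in those with a *Gata6* UMI, and the squares of *Mrc1* reach at most 4.64 CPM.

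Over 24 sums of macrophages (6 libraries by the 4 strata), the genes most like each member were named by Pearson's r of log2(CPM + 10) among 5284 genes, as a description, since the sums share libraries and depth. The smallest sum, *Folr2* only in library 2, held 5 cells and 20654 UMIs. Low genes such as *Scarb1* (14.7 CPM in macrophages) and *Mrc1* (10.3 CPM) thus have few or no UMIs in the small sums, and their r values carry that counting error. *Itga6* (r = 0.92), *Ptgis* and *Serpinb2* were most like *Mfge8*, and *Psap* (r = 0.92), *Soat1* and *Rpn1* most like *Cd36*. *Marco* was most like *Fcna* (r = 0.91), *Dtx4* and *C1qa*, and *Msr1* most like *Gnai2* (r = 0.90), *Pf4* and *Notch2*. For *Stab1* these were *Vsig4* (r = 0.82), *Tfg* and *Mbd6*, for *Mrc1* *Evi2a* (r = 0.81), *Cbr2* and *Itga5*, and for *Scarb1* *Slc33a1* (r = 0.81), *Hnrnpd* and *Dido1*. *Timd4* had *H2-Q4* (r = 0.74), *Herc4* and *Mxd4*, and *Lrp1* had *Vdac2* (r = 0.75), *Pdgfa* and *Lilr4b*.

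Other genes of the pathway were read from 3 lists. Of 23 further phosphatidylserine receptors and bridging molecules, 16 passed the filter, of which 13 were at least 2-fold higher in macrophages than in B cells and 2 were lower, with a list median of 5.20 beside -0.21 over all genes tested. Over all genes tested, 18.3% were at least 2-fold higher and 25.1% lower, and the counts of all 3 lists stand beside these shares. *Thbs1*, a secreted bridge to CD36 and integrins, was at 10571 CPM (log2 ratio 6.10), *C1qa*, a complement opsonin subunit, at 385 CPM (5.90), the integrin subunit *Itgb5* at 35.8 CPM (5.79) and *Cd300lb* at 156 CPM (5.73). The lower genes, *Cd300lf* (-4.37) and *Havcr1* (-3.43), are phosphatidylserine receptors that were higher in B cells. Of 23 other scavenger and lipoprotein receptors, 14 passed and 12 were higher and 1 lower, with *Clec7a*, the β-glucan receptor, at 1211 CPM (5.93), *Olr1* at 640 CPM (5.83), *Cd14* at 2405 CPM (5.66) and *Fcrls* at 18.1 CPM (5.51). Of 28 genes of engulfment and lipid efflux, 24 passed, 12 were higher and 2 lower, with a median of 1.01. *Tgm2* (5.74), the nuclear receptor *Rxra* (4.66), the cholesterol exporter *Abca1* (3.45) and the inhibitory receptor *Sirpa* (2.89) were among the higher, and *Rac2* (-2.29) and *Dock2* (-1.07), signalling proteins of haematopoietic cells, were lower.

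Within macrophages, the TAM receptor gene *Axl* and the annexin gene *Anxa1* differed in the opposite direction to *Timd4*. *Axl* was at 7.58 CPM with and 39.0 CPM without a *Gata6* UMI, a log2 ratio of -2.36 (-2.95 to -1.83), and at 85.01 and 24.0 CPM with and without an *Irf4* UMI, a log2 ratio of 1.83 (1.5 to 2.14). *Anxa1* had log2 ratios of -1.03 and 2.24. *Pros1*, a TAM receptor ligand, was lower with an *Irf4* UMI (-1.09), as were *Tgm2* (-1.24), *Abca1* (-1.13) and *Cd14* (-1.21). *Fcrls* (3.54), *Lgals3* (2.53), *Cd300lf* (2.15) and *Lrp12* (1.56) were higher. Over the 3 lists in the order above, 4 of 16, 3 of 14 and 0 of 24 genes were at least 2-fold higher, beside 7.69% of all genes tested. At least 2-fold lower were 2, 2 and 3, beside 5.87%. Directions by library are not given for these genes. With a *Folr2* UMI, *Anxa5* (1.48), *C1qa* (1.14) and *Cd300lb* (1.10) were higher. In that split 3, 3 and 0 genes of the 3 lists were at least 2-fold higher, beside 6.52% of all genes tested. At least 2-fold lower were 2, 0 and 1, beside 5.25%. *Mertk*, the receptor gene targeted in the Mertk-/- mice, was at 24.1 CPM over all macrophages, between 17.4 and 33.9 by library. These genes of the splits were picked after their values were seen.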

How the data were processed

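Peritoneal cells of 6 libraries, 1 per genotype and condition with 3 mice pooled, were profiled with a droplet 5′ kit. STAR, run by the authors within Cell Ranger, mapped the reads to both species (release 2.2 in the submitters' processing notes, where Seurat 3.0 is also named, while the paper's methods give another), and they deposited raw UMI counts per mouse gene and cell. The build is mm10, and the gene annotation is not given in the sources used here. No normalization had been applied. The 6 library numbers were matched to no label, so no sample was assigned to a condition from its number or its values.

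The study's limits (500 genes or more, mitochondrial share no higher than 10%, and a ratio no lower than 0.8, which the methods word as UMIs per gene and which was read here as log genes over log UMIs) left 7665 of 7760 barcodes. Counts were summed over gated cells and divided by the class total to give CPM, with exact Poisson 95% intervals, exact conditional intervals for ratios and exact binomial ones for shares (Python 3.11.15, numpy 2.4.6, scipy 1.17.1). A ratio against 0 UMIs used 3 UMIs as the floor. Comparisons across genes took genes averaging 5 CPM or more, and a gene counted as higher or lower at 2-fold, with no test. Shares were also taken after thinning each cell to 1500 UMIs (seed 1). No doublet caller was run and free RNA was not removed. The strict gates exclude any UMI of another class. The ratios, intervals and calls were tested on simulated Poisson counts of each class sum. These counts hold no spread between cells or libraries, so the test does not cover such spread. Alternatives changed cell filters, gates, library weights, depth, the filter, the threshold and the libraries included. The counts of lower members were followed under them after the data had been seen.

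The members, gene lists, cell type markers and alternatives were chosen with earlier results of these data known. Named genes were the 10 members, up to 4 genes per list with the largest absolute log2 ratio of macrophages over B cells, and the 3 genes most like each member with at least 100 UMIs in macrophages. Genes above a mean of 20 CPM entered that last step, with a pseudocount of 10. The genes of the lists named within macrophages, *Rac2*, *Dock2* and the lower genes of the other lists, and *Lyz2* and *Lyve1* fell outside this rule. A macrophage marker of the fixed list is not reported here.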

Additional observations from a re-analysis of the deposited data

Results flagged for a closer look

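In the 1277 cells that met no gate and so entered no comparison, UMIs of all 10 members were found, and for 2 members the interval of the level lay above those in both B cells and T/NK cells. *Cd36* stood there at 459 CPM and *Lrp1* at 25.8 CPM, above their levels in B cells (33.4 and 2.64 CPM) and below those in macrophages (1575 and 164 CPM). By library *Cd36* was between 91.0 and 971 CPM in these cells, with a median of 203. *Lrp1* was between 3.14 and 54.1 CPM, with a median of 15.3. Library 6, with 514 of the 1277 cells, held 1257 of the 1971 *Cd36* UMIs and 70 of the 111 *Lrp1* UMIs. The level differed with the macrophage UMIs held, though not in step with their number. The 220 cells with exactly 1 UMI of *Csf1r*, *Adgre1* or *Fcer1g* had 2392 CPM of *Cd36* (2261 to 2528) and 113 CPM of *Lrp1* (85.7 to 145) at a median depth of 1970 UMIs. The 1039 cells with none of them had 178 CPM of *Cd36* (164 to 192) and 11.5 CPM of *Lrp1* (8.31 to 15.6) at a median of 2887 UMIs. *Msr1* was at 147 CPM in the first set and 7.69 CPM in the second. The other 18 cells, with 2 or more of these UMIs but too many lymphocyte UMIs for the macrophage gate, had 544 CPM of *Cd36*, 77.8 CPM of *Lrp1* and 101 CPM of *Msr1*. What the cells with no macrophage gate UMI are was not tested.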

How the results depend on the processing

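The count of members at least 2-fold higher in macrophages was 7 against B cells and 7 against T/NK cells, and stayed between 7 and 9 under every alternative run. The 2-fold counts within macrophages were small and moved with the settings. With *Gata6* the count went from 0 to 1 at a threshold of 1.5-fold (*Timd4*). With *Irf4* it went from 0 to 1 after thinning to 1500 UMIs before gating (*Scarb1*), without the filter on low values (*Mrc1*) and at 1.5-fold (*Cd36*). With *Folr2* it went from 2 to 1 with equal library weights (*Scarb1* at 0.72) and to 4 without the filter. Leaving out any 1 library changed none of these 5 counts of higher members, which stayed at 7, 7, 0, 0 and 2, but without library 4 the 2 members higher with *Folr2* were *Marco* (1.48) and *Stab1* (1.07), with *Scarb1* at 0.19. The count of lower members with *Irf4*, 4 as reported, went to 2 after thinning before gating (*Msr1* and *Timd4*), was between 3 and 5 without 1 library (without *Msr1* when library 3 or 5 was left out, with *Marco* when library 6 was) and otherwise between 3 and 5. Equal library weights kept this count at 4, with *Marco* in place of *Timd4*. Among cells with at least 1000 genes it was 3, without *Msr1*. With *Gata6* it went from 0 to 1 (*Mrc1*) after thinning before gating and without the filter, and with *Folr2* from 1 to 0 after thinning. Against B and T/NK cells it was 0 in all. Thinning before gating reversed *Mrc1* in the *Irf4* split (-0.056, interval -3.15 to 1.9), where few cells were left. Of 648 alternative values of single genes, 547 lay inside the counting interval of the reported value and 100 outside it, and this 1 changed sign where that interval did not hold 0. The settings were unequal in this. Thinning before gating alone moved 30 values outside their interval, beside 50 reported values, and strict gates, the next, moved 13. Without library 1 the log2 ratio of *Timd4* over T/NK cells went from 4.71 to 6.61, and without library 2 that of *Lrp1* over B cells from 5.96 to 6.41. Strict gates took *Lrp1* over B cells to 10.55 and *Msr1* to 8.57. Under equal library weights *Timd4* in the *Gata6* split fell from 0.76 to 0.48. Thinning before gating took it to 0.29 (-0.53 to 1.03).

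Levels between genotypes and times were planned and not made, because library numbers were matched to no label, and no paired analysis was possible because the labels give no replicate numbers and no test was run. Depth limits *Cd163* (68 UMIs in macrophages) and *Mrc1* (142 UMIs), and the *Folr2* split, which rests on 134 cells.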
